A study of Mus musculus with 6 samples.

Results

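Glycerol-3-phosphate is the backbone on which fat cells build triglyceride, and it is also the carrier of a shuttle that passes the electrons of cytosolic NADH to the respiratory chain. The 9 genes described here encode the enzymes and channels of these routes, namely the glycerol-3-phosphate dehydrogenases *Gpd1*, *Gpd1l* and *Gpd2*, glycerol kinase (*Gk*), the aquaglyceroporins *Aqp7* and *Aqp3*, the phosphoenolpyruvate carboxykinases *Pck1* and *Pck2*, and fructose bisphosphatase (*Fbp1*). They were chosen by name from the 19445 gene loci of the deposited table, and all 9 have a row. Glycerol kinase is listed there under its older symbol *Gyk*. White adipocytes are known for very little glycerol kinase, so that most glycerol freed by lipolysis leaves through *Aqp7* and new glycerol-3-phosphate comes from glycolysis or from pyruvate by way of *Pck1* (glyceroneogenesis). Brown adipocytes are known for more glycerol kinase and for a very active shuttle, in which cytosolic *Gpd1* reduces dihydroxyacetone phosphate and mitochondrial *Gpd2* oxidizes the product and feeds ubiquinone.

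The tissue was the inguinal white depot (iWAT), taken at 12 weeks from 3 mice that carry an *Hlx* transgene (TG) and 3 wild-type (WT) littermates, and RNA-Seq gave 1 library for each animal. The transgene was the *Hlx* cDNA behind the *aP2* (*Fabp4*) promoter, which is active in fat, on a hybrid background that was backcrossed to C57BL/6. Whether the 3 TG mice came from 1 line is not given in the sources used here. The measure is FPKM, a read density per transcript length and per mapped reads, so that levels can be compared between genes. Differences between genotypes are given as log2 fold changes of FPKM + 1, TG minus WT, which understate the change of genes with low FPKM.

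*Hlx* had 110, 79.6 and 99.5 FPKM in the TG mice and 6.88, 7.35 and 8.14 FPKM in the WT mice, in accord with the genotype labels. Per library the FPKM column added up to 504083 to 542096 in TG and to 466059 to 518450 in WT mice. The depth behind these values is unknown, since the files used here hold no counts, and only 12.5% to 15.3% of the values under 0.3 FPKM fell on a common step from library to library, too few to recover reads from. The labels give male mice, yet *Xist* had 20.2 to 33.6 FPKM in the 6 libraries and 0 of 28 loci of the Y chromosome were above 0, so the libraries go against the sex on their labels in both genotypes alike. The 8 adipocyte markers were present in every library, and their summed level was 28909 to 34257 FPKM in TG and 26260 to 33129 FPKM in WT mice. Most of this sum was *Fabp4* alone, at 24561 to 29363 FPKM in TG and 19297 to 23539 FPKM in WT mice. The sum therefore says little about the other markers. Of the 8 adipocyte markers, 3 had a log2 fold change above 0, and the median was -0.11. *Adipoq* (log2 fold change -0.85, limma adjusted p = 0.0172) and *Retn* (-2.02, adjusted p = 0.00346) were called lower in TG iWAT. Of 8 brown adipocyte markers, 7 were called higher in TG iWAT. The 9 listed markers of skeletal muscle that have a row summed to 93.5, 670 and 133 FPKM in TG and to 7.64, 141 and 39.3 FPKM in WT mice, so TG replicate 2 carried the most muscle RNA. None of the 9 muscle markers was called by limma, and 2 had an unadjusted p under 0.05. All 9 nevertheless had a log2 fold change above 0, with a median of 2.17. Macrophage markers were lower in TG iWAT (5 of 10 called, summed level 694 to 1028 FPKM against 1235 to 1676 FPKM). Endothelial markers were mixed, with 2 of 6 called higher and 3 of 6 at a log2 fold change above 0 (median 0.10). Their summed level was 154 to 161 FPKM in TG and 140 to 146 FPKM in WT mice. For scale, 11.6% of all loci tested were called higher and 7.03% were called lower. The part of these cell types in the results was not tested, and in bulk tissue fewer cells of a type and less RNA per cell cannot be told apart.

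The stretches before the transcription starts of 4 members are shown because *Gpd2*, *Gk* and *Aqp7* moved with the genotype and *Pck1*, the classical hormone-controlled gene of the group, did not pass the test. Each is the 250 bases 5′ of a RefSeq start on the strand of the gene (build GRCm38.p6). Capitals mark matches, on either strand, to AGGTCA, the core bound by nuclear receptors such as PPAR with RXR, and to TTACGTCA, a form of the cAMP response element.

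Gpd2, chr2:57237428-57237677, plus strand: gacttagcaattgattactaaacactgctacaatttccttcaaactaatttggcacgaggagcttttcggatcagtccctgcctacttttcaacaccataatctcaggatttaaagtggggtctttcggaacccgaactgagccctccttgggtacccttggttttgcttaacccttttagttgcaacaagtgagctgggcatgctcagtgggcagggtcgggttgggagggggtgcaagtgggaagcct

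Gpd2, chr2:57238132-57238381, plus strand: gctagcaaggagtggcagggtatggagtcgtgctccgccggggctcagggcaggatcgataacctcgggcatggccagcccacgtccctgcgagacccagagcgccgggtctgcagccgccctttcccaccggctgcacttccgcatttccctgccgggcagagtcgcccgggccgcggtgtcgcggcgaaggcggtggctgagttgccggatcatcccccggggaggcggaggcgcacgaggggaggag

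Gk, chrX:85776820-85777069, minus strand: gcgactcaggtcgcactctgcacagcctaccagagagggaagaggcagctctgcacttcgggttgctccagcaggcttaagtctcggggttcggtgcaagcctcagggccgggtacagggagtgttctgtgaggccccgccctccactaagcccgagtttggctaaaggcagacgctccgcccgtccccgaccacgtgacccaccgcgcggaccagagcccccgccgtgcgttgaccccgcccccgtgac

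Aqp7, chr4:41048137-41048386, minus strand: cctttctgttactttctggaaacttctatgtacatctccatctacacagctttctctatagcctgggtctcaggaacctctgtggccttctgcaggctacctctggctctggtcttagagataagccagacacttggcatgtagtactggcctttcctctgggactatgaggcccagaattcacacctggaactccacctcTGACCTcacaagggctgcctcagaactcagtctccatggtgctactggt

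Pck1, chr2:173152823-173153072, plus strand: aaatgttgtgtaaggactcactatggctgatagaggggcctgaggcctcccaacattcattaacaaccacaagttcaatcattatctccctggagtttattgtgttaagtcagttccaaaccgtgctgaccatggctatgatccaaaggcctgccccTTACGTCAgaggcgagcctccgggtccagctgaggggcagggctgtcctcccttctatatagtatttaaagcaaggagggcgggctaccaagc

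The *Aqp7* window held AGGTCA on the opposite strand, from 49 to 44 bases before the start. AGGTCA was present in 14.0% of the 32851 windows of this length in the RefSeq table, so its presence is common. The window of a further *Aqp7* start, within the gene, overlaps this one and held the same match and 1 more. The *Pck1* window held TTACGTCA from 93 to 86 bases before the start, which 0.447% of all windows hold. Since the motifs were chosen after the sequences had been searched, this share is no test of the match. The shorter TGACG, which overlaps TTACGTCA on the other strand, was present in 17.8% of windows and among the members in *Pck1* alone. TGACGTCA (1.55% of all windows) and the homeobox core TAATTA (4.84%) were found in 0 of the 10 windows of the 8 members with an entry, and *Gpd1* is the member without one. At shares this low, 10 windows are too few for an absence to be read. The Hlx motif that the authors used was not searched for. The windows differed in CpG content. *Gpd2* has a start with 5 CpG and a later one with 26, *Gk* had 21 CpG, the *Aqp7* windows had 0 and 2, and the median over all windows was 6.

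Of the 9 members, 8 passed the expression filter (mean FPKM over 1 in at least 1 genotype) and were tested. *Gpd1*, *Gpd2*, *Gk* and *Aqp7* were higher in TG iWAT, none was called lower, and *Gpd1l*, *Pck1*, *Pck2* and *Aqp3* did not pass the test (limma, adjusted p under 0.05 over all loci tested). At an unadjusted p under 0.05 the count of lower members was also 0. Over all 11692 loci tested, 11.6% were called higher and 7.03% were called lower. For these 4 members every TG mouse was above every WT mouse, which held for 22.8% of all loci, and at 0 members was every TG mouse below every WT mouse, which held for 20.1% of all loci. The median log2 fold change of the 8 members was 0.51, against -0.01 over all loci. For 3 mice against 3 the smallest two-sided p of an exact permutation test is 0.1, the value found for each of these 4.

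**Figure D1:**
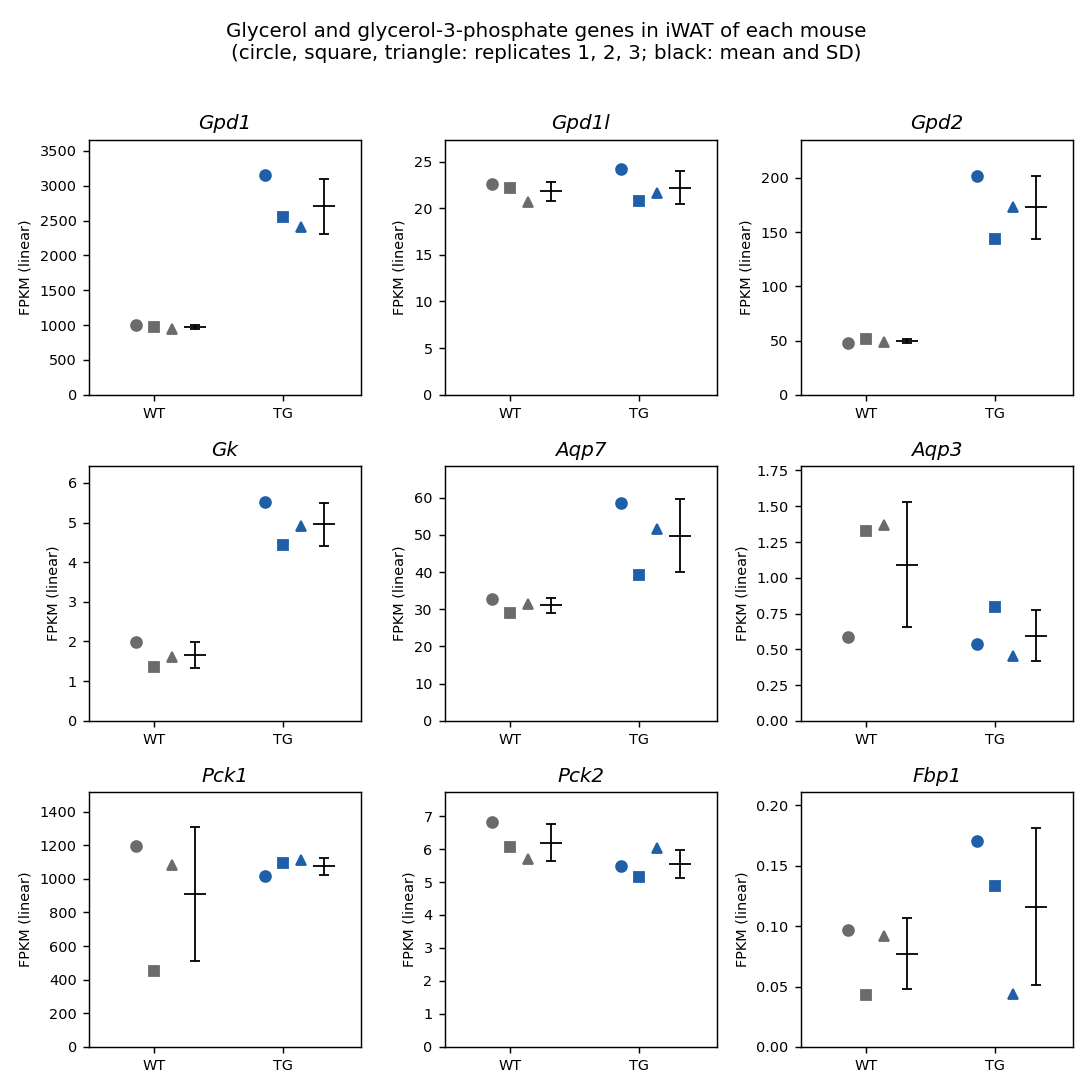
FPKM (linear axis from 0) of each member in each mouse, WT in grey and TG in blue, with the mean and SD (n = 3) in black. *Gpd1*, *Gpd2*, *Gk* and *Aqp7* separate by genotype, WT replicate 2 stands apart for *Pck1*, and *Fbp1* stays under 0.2 FPKM.

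*Gpd1* encodes the cytosolic dehydrogenase that makes glycerol-3-phosphate and oxidizes NADH. It had 3150, 2549 and 2412 FPKM in TG and 1006, 969 and 945 FPKM in WT mice. The lowest TG mouse was well above the highest WT mouse, and the WT mice lay close together (SD 30.8 FPKM, against 393 FPKM among TG mice, n = 3 each). The ratio of the means was 2.78, the log2 fold change 1.46 (standard error 0.15, limma adjusted p = 0.00176). By mean FPKM *Gpd1* ranked 51st of 19445 loci in WT iWAT and 12th in TG iWAT. The locus lies on chromosome 15 from 99717593 to 99725007 (mm10), and an annotated antisense gene, *Gm16537*, runs across most of it. The library kit does not mark strand, so reads from both cannot be told apart.

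*Gpd2* encodes the flavoprotein of the inner mitochondrial membrane that completes the shuttle. It had 202, 144 and 173 FPKM in TG and 47.9, 51.4 and 48.5 FPKM in WT mice, again without overlap. Its log2 fold change, 1.78 (standard error 0.13, limma adjusted p = 0.000581), was the highest among the members and ranked 89th of the 11692 loci. The ratio of the means was 3.51. The table holds a further row named *Gpd2* at the same locus, chromosome 2 from 57236137 to 57370719, at 6.56, 4.71 and 5.42 FPKM in TG and 4.81, 4.92 and 3.25 FPKM in WT mice. That minor row overlapped between the genotypes (log2 fold change 0.31, limma adjusted p = 0.22). The locus also covers the opposite-strand transcript *A930012O16Rik* at its start and a pseudogene, neither with a row of its own.

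*Gpd1l* encodes a cytosolic protein related to *Gpd1*, with much lower dehydrogenase activity, known for its effect on a cardiac sodium channel. It had 24.2, 20.7 and 21.7 FPKM in TG and 22.6, 22.2 and 20.6 FPKM in WT mice. The genotypes overlapped throughout, and the 95% interval of the log2 fold change ran from -0.18 to 0.22 (estimate 0.02, limma adjusted p = 0.867). *Gpd1l* is on chromosome 9 from 114899339 to 114933987.

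The relation among the dehydrogenases was also computed within each mouse, as a percentage of 2 FPKM values, which does not depend on how a library was scaled. *Gpd1l* was at 0.767%, 0.814% and 0.899% of *Gpd1* in TG and at 2.25%, 2.29% and 2.18% in WT mice, a fall by 1.44 on the log2 scale. *Gpd2* was at 6.40%, 5.64% and 7.18% of *Gpd1* in TG and at 4.76%, 5.31% and 5.13% in WT mice, a rise of 0.33 on the log2 scale. In both cases the genotypes did not overlap (exact permutation test, two-sided p = 0.1, or 0.167 adjusted over the 5 ratios computed). By the fit over all loci, the mRNA of both the mitochondrial and the cytosolic enzyme of the shuttle was higher in TG mice. *Gpd1* remained far above *Gpd2* in every mouse.

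**Figure D2:**
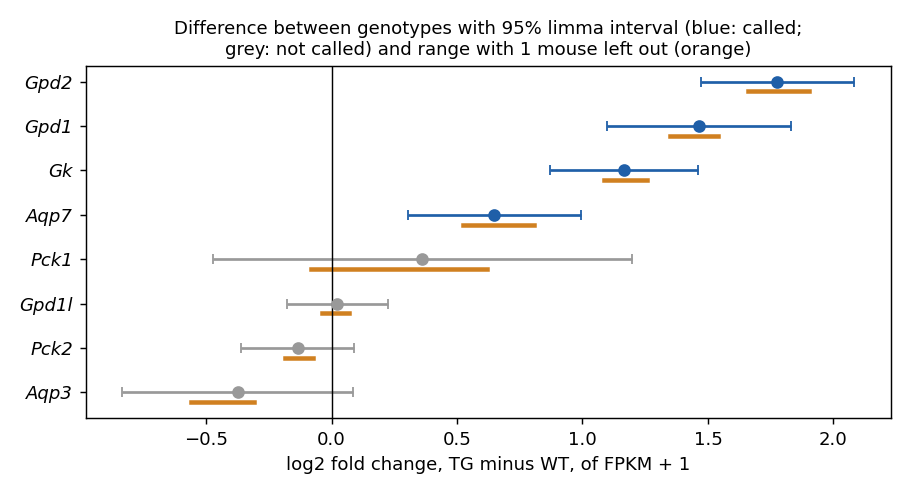
Log2 fold change of FPKM + 1 (TG minus WT) of the 8 tested members with 95% limma intervals, blue where called and grey where not, and in orange the range when 1 mouse at a time was left out. The intervals of *Gpd2*, *Gpd1*, *Gk* and *Aqp7* lie above 0, and *Pck1* has the widest one, from -0.47 to 1.197.

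*Gk* encodes glycerol kinase, which lets a cell reuse glycerol. It had 5.52, 4.44 and 4.90 FPKM in TG and 2.00, 1.36 and 1.61 FPKM in WT mice. Every TG mouse was above every WT mouse, although the level stayed low in both genotypes. The ratio of mean FPKM was 2.99. The log2 fold change of FPKM + 1, which the pseudocount lowers for a gene at this level, was 1.17 (limma, standard error 0.12, adjusted p = 0.00186). With a pseudocount of 0.1 FPKM the log2 fold change was 1.53. The gene is on chromosome X from 85701937 to 85776819, and an antisense gene (*Gm14764*) and a pseudogene lie inside it without rows of their own, so that their reads cannot be told apart from those of *Gk*. Other glycerol kinase genes gave little signal, *Gk2* and *Gykl1* being listed at 0 in all 6 mice. *Gk5* had 1.29 ± 0.238 FPKM in TG and 0.831 ± 0.0474 FPKM in WT iWAT (SD, n = 3 each; limma adjusted p = 0.121), and it passed the filter only through the TG mice.

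*Aqp7* encodes the main glycerol channel of adipocytes. It had 58.6, 39.3 and 51.5 FPKM in TG and 32.7, 28.9 and 31.4 FPKM in WT mice. The groups did not overlap, and the lowest TG mouse, replicate 2, came nearest to the highest WT mouse. The ratio of mean FPKM was 1.61. The log2 fold change of FPKM + 1 was 0.65 (limma, standard error 0.15, adjusted p = 0.0249). When 1 mouse at a time was left out the adjusted p stayed under 0.05 only without TG replicate 2 (0.00654), and without any of the other 5 it was between 0.0532 and 0.0817, with log2 fold changes from 0.52 to 0.69.

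*Aqp3* encodes an aquaglyceroporin of epithelia and lies 44.6 kb from *Aqp7* on chromosome 4 (41092724 to 41098183, against 41032953 to 41048136). It had 0.538, 0.799 and 0.451 FPKM in TG and 0.586, 1.32 and 1.37 FPKM in WT mice. The value of WT replicate 1 lay among those of the TG mice. The log2 fold change was -0.37, with a 95% interval from -0.83 to 0.09 (limma adjusted p = 0.212), and the gene passed the filter only through the WT mean. *Aqp3* was at 0.918%, 2.03% and 0.876% of *Aqp7* in TG and at 1.79%, 4.58% and 4.36% in WT mice, with overlap (exact permutation test, p = 0.2). Epithelial markers were present, at a summed level of 99.4 to 191 FPKM in TG and 145 to 225 FPKM in WT mice. Of the 8 tested, 0 were called and 3 were lower at an unadjusted p under 0.05 (limma). None of the 8 had a log2 fold change above 0, and the median was -0.37. The part of epithelium in the *Aqp3* values was not tested. *Epcam*, for example, had 10.1, 16.7 and 34.9 FPKM in TG and 34.3, 25.3 and 20.4 FPKM in WT mice, with overlap.

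Among other aquaporins, *Aqp1*, a water channel of endothelium, ran from 41.3 to 66.5 FPKM in TG and from 52.7 to 65.6 FPKM in WT mice. Its 95% interval of the log2 fold change ran from -0.56 to 0.34. *Aqp11* had 3.81 ± 0.133 and 2.46 ± 0.607 FPKM (SD, n = 3 each) and was just called (limma adjusted p = 0.049997), a call kept in 1 of 6 fits with 1 mouse left out and in 4 of 8 other fits. *Aqp5* had 8.65, 9.58 and 10.9 FPKM in TG and 23.9, 11.3 and 11.5 FPKM in WT mice, without overlap. Its log2 fold change, -0.55, was not called (limma adjusted p = 0.188). *Aqp9*, the glycerol channel of liver, was under 1 FPKM in all mice and was not tested.

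*Pck1* encodes the cytosolic carboxykinase of glyceroneogenesis. It had 1017, 1096 and 1114 FPKM in TG mice and 1196, 452 and 1081 FPKM in WT mice. WT replicate 2 was far below the other WT mice, which lay at or near the TG level. The log2 fold change was 0.36 with a 95% interval from -0.47 to 1.197 (limma adjusted p = 0.492), and without WT replicate 2 it was -0.08 (adjusted p = 0.765). *Pck1* ranked 56th of 19445 loci in WT and 52nd in TG iWAT. It is on chromosome 2 from 173153073 to 173159253.

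*Pck2* encodes the mitochondrial carboxykinase. It had 5.47, 5.15 and 6.02 FPKM in TG and 6.81, 6.06 and 5.71 FPKM in WT mice, with overlap. The log2 fold change was -0.13 (95% interval -0.36 to 0.09, limma adjusted p = 0.343). The locus is on chromosome 14 from 55540266 to 55551089, and the antisense gene *Gm10876* overlaps its start. *Pck2* was at 0.538%, 0.470% and 0.540% of *Pck1* in TG and at 0.569%, 1.34% and 0.528% in WT mice, where the high value is that of WT replicate 2 (exact permutation test, p = 0.3).

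*Gk* and *Pck1* stand for 2 routes to glycerol-3-phosphate in fat, from free glycerol and from pyruvate. *Gk* was at 0.543%, 0.405% and 0.440% of *Pck1* in TG and at 0.167%, 0.302% and 0.149% in WT mice. Every TG mouse was above every WT mouse, and the rise was 1.23 on the log2 scale (exact permutation test, two-sided p = 0.1, or 0.167 adjusted over the 5 ratios). With 1 FPKM added to both values it was 0.80 (p = 0.2 by the same exact test), and with 1 mouse left out it ran from 1.03 to 1.54. *Gk* thus stayed under 1% of *Pck1* in every mouse.

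**Figure D3:**
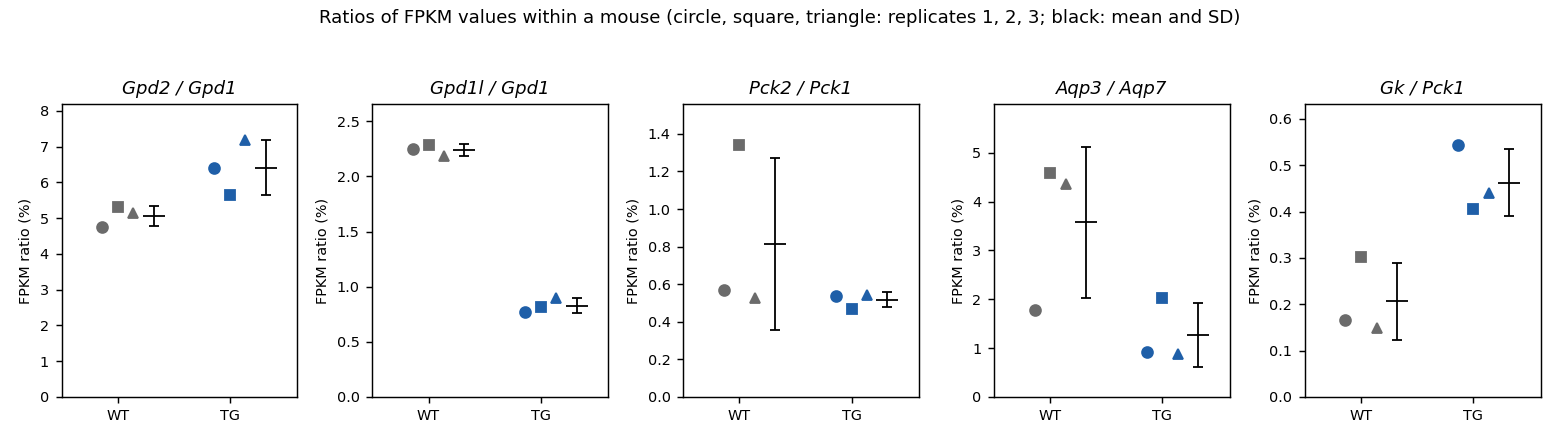
Ratio of 2 FPKM values within each mouse, in percent (linear axes from 0), with the mean and SD (n = 3) per genotype in black. *Gpd2* to *Gpd1* and *Gk* to *Pck1* were higher and *Gpd1l* to *Gpd1* was lower in every TG mouse, while the other ratios overlapped.

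*Fbp1* encodes fructose bisphosphatase of liver and kidney, which passes triose phosphates on toward glucose. It had 0.171, 0.134 and 0.0441 FPKM in TG and 0.0971, 0.0431 and 0.0915 FPKM in WT mice, so it did not pass the filter and was not tested. The muscle isoform *Fbp2*, whose locus ends 6.04 kb before that of *Fbp1* on chromosome 13, behaved differently. It had 14.6, 12.1 and 12.4 FPKM in TG and 0.949, 1.31 and 1.07 FPKM in WT mice, a ratio of the means of 11.7. On the log2 scale it rose by 2.73 (limma, standard error 0.11, adjusted p = 0.000113). *Fbp2* is also expressed in skeletal muscle, whose markers summed to 93.5, 670 and 133 FPKM in these TG mice and to 7.64, 141 and 39.3 FPKM in the WT mice, and the part of muscle in its values was not tested.

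The order of the members by level was the same in both genotypes. In TG iWAT the order by mean FPKM was *Gpd1*, *Pck1*, *Gpd2*, *Aqp7*, *Gpd1l*, *Pck2*, *Gk*, *Aqp3* and *Fbp1*, as in WT iWAT. In TG mice the neighbours *Pck2* and *Gk* overlapped. In WT mice *Gpd1* overlapped with *Pck1*, and *Gk* with *Aqp3*. All other neighbours in the order were separate in every mouse of the genotype. Mice of a genotype did not share 1 order across the members. Within the TG mice replicate 2 was lowest for *Gpd2*, *Gk* and *Aqp7*, replicate 3 for *Gpd1* and replicate 1 for *Pck1*. Within the WT mice replicate 2 was lowest for *Gk*, *Aqp7* and *Pck1* and highest for *Gpd2*.

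Around the members, 41 partner genes in 6 lists were examined, of which 31 were tested. Here 11 were called higher and 2 were called lower (limma, adjusted p under 0.05), the others not, beside 11.6% of all loci called higher and 7.03% called lower. The median log2 fold change of the tested partners was 0.18, against -0.01 over all loci.

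The malate-aspartate shuttle is the other route by which cytosolic NADH reaches mitochondria. Of its 6 tested genes 3 were higher. The malate dehydrogenases *Mdh2* (772 ± 106 against 381 ± 34.6 FPKM, SD, n = 3 each) and *Mdh1* (437 ± 24.5 against 273 ± 47.2 FPKM) had log2 fold changes of 1.01 and 0.69 (limma adjusted p = 0.00421 and 0.0198). The carrier *Slc25a11*, which exchanges malate for oxoglutarate, had 67.3 ± 3.68 against 43.0 ± 4.49 FPKM (SD, n = 3 each; log2 fold change 0.64, limma adjusted p = 0.00701). The transaminases *Got1* and *Got2* had log2 fold changes of 0.18 and 0.06, and the aspartate-glutamate carrier *Slc25a12* had -0.33 (adjusted p from 0.217 to 0.724). The call of *Mdh1* was kept in 3 of 6 fits with 1 mouse left out and lost with quantile normalization (log2 fold change 0.35, adjusted p = 0.0691).

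*Gpd2* is among several dehydrogenases that hand electrons to ubiquinone. Of 6 such partners 2 were higher, *Etfdh* and *Sdha*. *Etfdh*, which takes electrons from fatty acid oxidation, had 320 ± 42.0 FPKM in TG and 89.5 ± 14.9 FPKM in WT iWAT (SD, n = 3 each; log2 fold change 1.83, limma adjusted p = 0.000829). *Sdha*, of succinate dehydrogenase, had a log2 fold change of 1.33 (limma adjusted p = 0.0016). *Dhodh* of pyrimidine synthesis had 0.36 (limma adjusted p = 0.0537), *Chdh* 0.10, *Prodh* -0.11 and *Sqrdl* -0.20, none of them called. The rise of *Gpd2*, 1.78, lay beside that of *Etfdh*.

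Of the 7 tested genes around *Pck1* and *Fbp1*, 3 were higher and 1 was lower. Beside *Fbp2*, these were the glycolytic enzymes *Gpi1* (log2 fold change 1.19, limma adjusted p = 0.000792) and *Aldoa*, the aldolase that yields dihydroxyacetone phosphate, the substrate of *Gpd1*. *Aldoa* had 3426 ± 367 FPKM in TG and 1622 ± 215 FPKM in WT iWAT (SD, n = 3 each; log2 fold change 1.08, limma adjusted p = 0.00821), and without the filter the adjusted p was 0.0648. *Pcx*, pyruvate carboxylase, the step before *Pck1* in glyceroneogenesis, fell from 817 ± 71.7 to 527 ± 74.0 FPKM (SD, n = 3 each; log2 fold change -0.64, limma adjusted p = 0.0248), a call kept in 2 of 6 fits with 1 mouse left out and lost without the filter (adjusted p = 0.052). *Tpi1*, *G6pc3* and *Aldoc* were not called. *G6pc*, the liver enzyme that releases glucose, had at most 0.103 FPKM.

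Of the 6 tested genes that use glycerol-3-phosphate or lie beside it, 2 were higher and 1 was lower. The acyltransferases that begin glycerolipid synthesis from it moved apart. *Agpat6* (GPAT4) rose from 46.4 ± 3.65 to 86.8 ± 11.8 FPKM (SD, n = 3 each; log2 fold change 0.88, limma adjusted p = 0.0042). *Agpat9* (GPAT3) fell from 35.0 ± 11.4 to 15.3 ± 3.46 FPKM (SD, n = 3 each; log2 fold change -1.12, limma adjusted p = 0.0224), with its call kept in 4 of 6 fits with 1 mouse left out. *Gpam*, the mitochondrial one, had 67.2 ± 6.16 FPKM in TG and 67.8 ± 8.33 FPKM in WT iWAT (SD, n = 3 each), and its 95% interval of the log2 fold change ran from -0.28 to 0.27. *Pgp*, a phosphatase that can release glycerol from glycerol-3-phosphate, had a log2 fold change of 0.61 (limma adjusted p = 0.0338), called in 1 of 6 fits with 1 mouse left out and not without the filter (adjusted p = 0.0573). *Dak* was not called (log2 fold change -0.06, limma adjusted p = 0.722).

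None of the 3 tested genes of glycerol release by lipolysis was called by limma, and 0 had an unadjusted p under 0.05. Hormone-sensitive lipase (*Lipe*) had 789 ± 73.7 FPKM in TG and 759 ± 29.9 FPKM in WT iWAT (SD, n = 3 each), with a 95% interval of the log2 fold change from -0.23 to 0.34. For monoglyceride lipase (*Mgll*) the interval was -0.44 to 0.08, and for *Abhd5*, the activator of adipose triglyceride lipase, it was -0.26 to 0.47. With quantile normalization *Mgll* was called lower (log2 fold change -0.50, adjusted p = 0.00922). The lipase itself, *Pnpla2*, has no row of its own in the table.

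**Figure D4:**
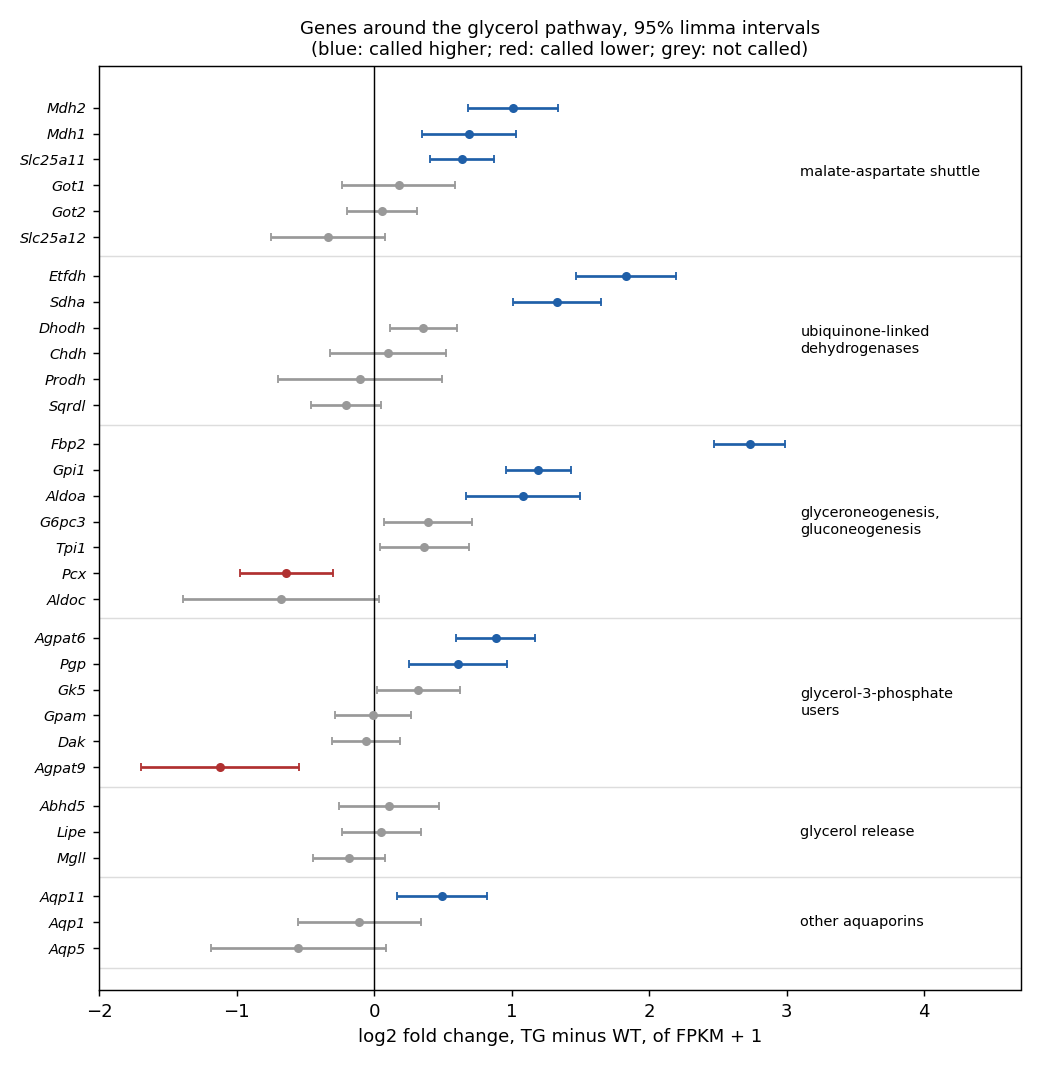
Log2 fold change of FPKM + 1 (TG minus WT) of the 31 tested partner genes by list, with 95% limma intervals that are not adjusted for the number of loci, blue for those called higher, red for those called lower and grey for those not called. *Fbp2*, *Etfdh* and *Sdha* lie farthest to the right, *Agpat9* and *Pcx* are the called falls, and the genes of glycerol release lie around 0.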

How the data were processed

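Total RNA of iWAT was made into TruSeq v2 libraries, which do not mark strand, and sequenced from one end. Per the labels, the submitters' processing notes name CASAVA 1.8.2, TopHat2 2.0.9, Bowtie2 2.1.0 and Cufflinks 2.2.1 with build mm10, and the annotation is not given in the sources used here. The authors deposited FPKM values per locus and mouse. Locus starts in the table count from 0 and are printed 1-based. A symbol on several rows was taken from the row with the highest mean FPKM.

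The 11692 of 19445 loci whose mean FPKM exceeded 1 in TG or in WT mice were tested on log2(FPKM + 1) with limma 3.58.1 in R 4.3.3 (lmFit, eBayes with trend, two-sided, Benjamini-Hochberg adjustment). Ratios within a mouse were compared by an exact permutation test over 20 arrangements in scipy 1.17.1. The procedure was tested on simulated data. Named genes are the members, *Hlx*, and partner genes that were called or that share a member's reaction. Other partner genes that were not called are named to complete their lists, after their values were seen. The members and lists were chosen with earlier results of these data known, and the promoter motifs after the sequences had been searched. The markers of lymphocytes (1 of 9 called lower) and epithelium (0 of 8 called, 3 lower at an unadjusted p under 0.05, by limma) were listed beside those named in the text. The labels do not say that equal replicate numbers mark a shared litter. Alternatives changed the pseudocount, filter, scaling, variance model, call threshold, replicate block and the row taken for *Gpd2*, and left out each mouse in turn.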

Additional observations from a re-analysis of the deposited data

How the results depend on the processing

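The 4 higher members were called under all 8 other fits that kept the 6 mice (another pseudocount, other filters and scalings, eBayes without trend, sample weights and the replicate block). With at least a 2-fold ratio or an adjusted p under 0.01 there were 3, and with 1 mouse left out 3 to 4. No setting called a member lower. *Gpd1l* changed sign with sample weights (-0.0073), quantile normalization (-0.000529) and without TG replicate 1 or WT replicate 3, with -0.0374 to 0.068 over the fits with 1 mouse left out, and *Pck1* without WT replicate 2 (-0.081 to 0.619 over such fits), none of them called. The minor row of *Gpd2* was not called (0.31). Of the partners, 6 were higher and 1 lower with a 2-fold ratio, 0 lower at an adjusted p under 0.01, 1 lower without a filter and 4 lower with quantile normalization, and with 1 mouse left out 8 to 11 were higher and 0 to 2 lower, 0 being the count without TG replicate 3. Over all loci the counts were 413 higher and 204 lower with a 2-fold ratio, 569 and 199 at an adjusted p under 0.01, and 780 (without WT replicate 3) to 1295 and 329 (without TG replicate 3) to 906 with 1 mouse left out. The cause of these shifts was not tested. With the replicate block 1230 loci were higher and 656 lower, with 4 members higher. Deviations of same-numbered mice correlated by 0.0129, 0.0344 and 0.0701 over 11692 loci, none over 0.1, while differently numbered mice correlated by -0.186 to 0.135, so the numbers were not taken as a pairing. The block changed no call among the members. *Dhodh* (adjusted p = 0.0434) and *G6pc3* (0.035) were called with the block and *Aqp11* was not (0.0633), *Dhodh* was also called with sample weights (0.034) and *Sqrdl* was called lower with quantile normalization (0.039). The ratios kept their direction throughout. Depth is unknown, so its effect on the low values of *Aqp3* and *Fbp1* was not tested.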
